A study of Saccharomyces cerevisiae with 12 samples.

Results

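The genes described here encode 10 tRNA methyltransferases and their partner subunits, of 5449 S. cerevisiae genes tested: TRM1, TRM2, TRM3, TRM5, TRM7, TRM8, TRM10, TRM11, TRM82 and TRM112. They were taken by gene symbol, and the family was chosen by measured values, the log2 changes of TRM11 with rapamycin in the 2 strains. The values of TRM11 are therefore given as a description, without a test, and counts of tested members cover the other 9. Each member has 1 probe set, and all 10 are measured. Yeast expressing wild-type histone H2B (H2B WT) or H2B with alanine in place of Arg95 (H2B R95A) grew exponentially and were either not treated or exposed for 30 min to rapamycin (200 ng/ml), which inhibits the TORC1 kinase. RNA was hybridised to 12 Affymetrix Yeast Genome 2.0 arrays, 3 per group. In both strains, which share the FY406 background and its auxotrophic alleles of his3, leu2, ura3, trp1 and lys2, LEU2 replaces the hta1-htb1 gene pair, TRP1 replaces hta2-htb2, and H2A and H2B come from a plasmid with a HIS marker, so the H2B WT group is itself a shuffle strain and not an unmodified yeast. Nothing states that the replicates came from separate cultures, so p-values measure the spread between arrays, which may be technical.

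Transfer RNAs are methylated at many positions after transcription. Some methyl groups lie in the anticodon loop, where they keep the reading frame and the decoding accurate, and others lie in the body of the tRNA, where they help it to fold and protect it from decay. Many tRNA methyltransferase genes are expressed with the genes that build ribosomes, which are active in growing cells and are turned down when TORC1 is inhibited.

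Several facts of the arrays bear on the values. The study lists the histone strains as MATa. The MATa-specific pheromone gene MFA2 had a mean log2 signal of 10.8 in untreated H2B WT and 5.21 in untreated H2B R95A, and the receptor gene STE2 had 9.43 and 5.02. The signals of the MATα genes MFALPHA1 and STE3 were low in both strains, at means between 1.98 and 4.45. The HTA2 probe set gave means between 11.5 and 11.7 although that gene is deleted, and HTA1, a near-identical copy, was at 11.3 to 11.5, so the signals of the pair may not be separable on these arrays. In every group the replicate 1 array stood apart in 10 glucose-repressed genes, whose mean signal was 10.5 to 10.7 there and 5.99 to 8.50 in the other arrays. Counts without the replicate 1 arrays, a setting chosen after these values were seen, are therefore given beside the main counts. All signals are log2 values normalized together by RMA (robust multi-array average), and levels of different probe sets are not compared.

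TRM11 (YOL124C) encodes the catalytic subunit that places a methyl group on a guanosine of the tRNA body, in a complex with Trm112. Its log2 signals in untreated H2B WT were 3.88, 3.34 and 3.31 in replicates 1, 2 and 3. With rapamycin they were 3.63, 3.04 and 3.16. In untreated H2B R95A they were 4.44, 5.81 and 4.88, and with rapamycin 3.52, 3.03 and 3.30. The 3 untreated H2B R95A arrays lay above all 9 others, which spanned 3.03 to 3.88 and overlapped among their groups.

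The group means were 3.51 ± 0.32 in untreated H2B WT, 3.28 ± 0.31 in treated H2B WT, 5.05 ± 0.70 in untreated H2B R95A and 3.28 ± 0.24 in treated H2B R95A (SD, n = 3 each). In order of level, untreated H2B R95A came first, and the other 3 groups did not differ beyond their spread. Untreated H2B R95A was 1.53 higher than untreated H2B WT on the log2 scale (SE 0.34), a 2.90-fold difference, and 12 of the 5498 tested probe sets had a larger positive difference. With rapamycin the strains differed by 0.01 (SE 0.34). Rapamycin against untreated gave -0.23 (SE 0.34) in H2B WT and -1.76 (SE 0.34) in H2B R95A, 3.39-fold lower. The difference between the 2 responses was -1.53 (SE 0.48), and 14 tested probe sets lay further in that direction. These are the values by which the family was chosen.

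The TRM11 signal was near the low end of the arrays. Between 2.02% and 3.86% of tested probe sets were lower than it in the 9 arrays outside untreated H2B R95A, and 5.40%, 19.7% and 9.97% were lower in the replicates 1, 2 and 3 of untreated H2B R95A. It stayed above 1.37, the signal below which 95% of the S. pombe probe sets on the array lay on average. The part of this low signal in the small difference in H2B WT was not tested.

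Between arrays of the same replicate number, untreated H2B R95A exceeded untreated H2B WT for TRM11 by 0.56, 2.47 and 1.57 in replicates 1, 2 and 3. The smallest of these was in replicate 1. Rapamycin minus untreated was -0.26, -0.29 and -0.15 in H2B WT and -0.92, -2.78 and -1.58 in H2B R95A. These are the values by which TRM11 was chosen, split by replicate number, so they are a description and not a repeat of the result. Same-numbered arrays also did not deviate together in every pair. The lowest correlation was 0.01 in H2B R95A with rapamycin and 0.06 between the untreated strains, both in replicate 3. Leaving out the replicate 1 arrays moved the difference between the untreated strains to 2.02.

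**Figure D1:**
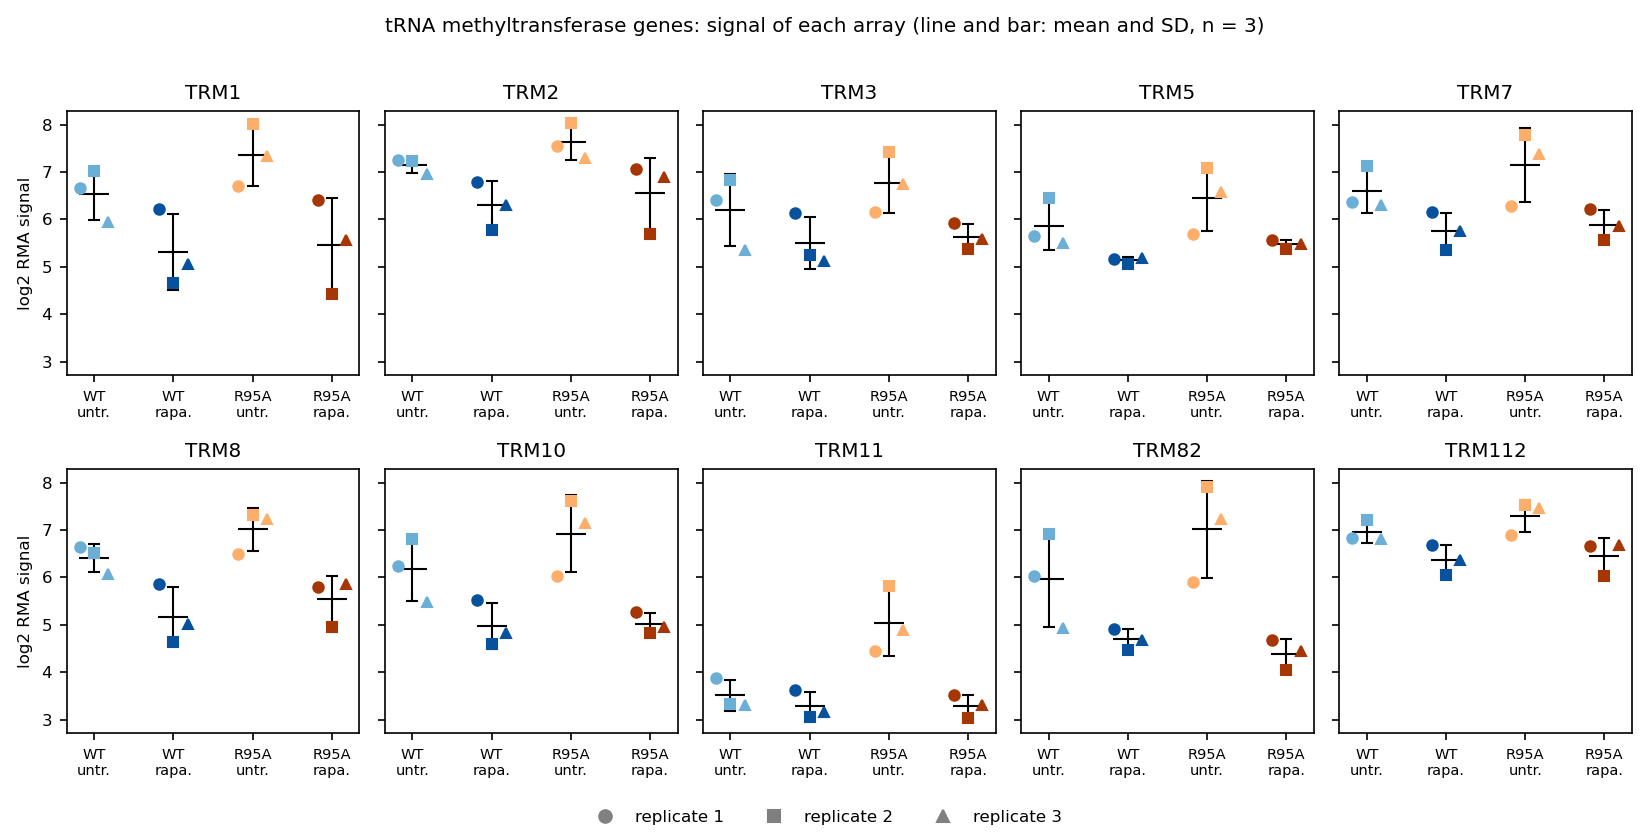
Log2 RMA signal (y axis) of each of the 10 members in the 4 groups (x axis, 3 arrays each). Symbols show the replicate, and lines and bars show the mean and SD (n = 3). The 3 untreated H2B R95A arrays of TRM11 lie between 4.44 and 5.81, and its 9 other arrays between 3.03 and 3.88. Levels should be compared within a panel only.

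Trm112 (gene TRM112, YNR046W) is the small partner that stabilises Trm11. It is also the partner of Trm9, which modifies the wobble uridine, of Mtq2, which methylates a translation termination factor, and of Bud23, which methylates the small ribosomal RNA. TRM112 signals were 6.84, 7.20 and 6.81 in untreated H2B WT and 6.68, 6.06 and 6.37 with rapamycin. They were 6.90, 7.52 and 7.46 in untreated H2B R95A and 6.66, 6.04 and 6.69 with rapamycin. The treated arrays were below the untreated arrays without overlap in each strain, and the untreated strains overlapped. Rapamycin against untreated gave -0.58 (SE 0.26) in H2B WT and -0.83 (SE 0.26, adjusted p = 0.152 by limma) in H2B R95A, and the strains differed by 0.34 (SE 0.26) untreated. The difference between the responses was -0.25 (SE 0.37).

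Of the other partners of Trm112, BUD23 gave -1.46 in treated H2B WT and -1.61 in treated H2B R95A, and TRM9 gave -0.82 and -1.12. MTQ2 gave -0.01 and -0.06. None of the 3 passed the test.

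TRM82 (YDR165W) encodes the noncatalytic subunit of the complex that methylates a guanosine in the variable loop. TRM8 (YDL201W) encodes its catalytic subunit. TRM82 signals were 6.03, 6.93 and 4.92 in untreated H2B WT and 4.92, 4.47 and 4.68 with rapamycin. In H2B R95A they were 5.90, 7.91 and 7.23 untreated and 4.68, 4.05 and 4.44 with rapamycin. Its treated arrays lay below its untreated arrays in both strains, though in H2B WT untreated replicate 3 almost touched treated replicate 1. TRM82 had the lowest fold change of the 10 members in H2B R95A, -2.62 (SE 0.53), 6.15-fold lower (adjusted p = 0.0941 by limma), and gave -1.27 (SE 0.53) in H2B WT. Its difference between the responses was -1.35 (SE 0.75), nearest among the other members to that of TRM11.

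TRM8 signals were 6.63, 6.52 and 6.08 in untreated H2B WT, 5.86, 4.65 and 5.01 in treated H2B WT, 6.50, 7.32 and 7.23 in untreated H2B R95A and 5.80, 4.95 and 5.85 in treated H2B R95A. The treated arrays were lower without overlap in each strain. TRM8 fold changes were close in the 2 strains, -1.24 (SE 0.36) in H2B WT and -1.48 (SE 0.36, adjusted p = 0.0941) in H2B R95A, with a difference of -0.24 (SE 0.51).

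TRM10 (YOL093W) and TRM5 (YHR070W) encode enzymes that methylate guanosines, Trm10 in the tRNA body and Trm5 next to the anticodon, where the methyl group prevents frameshifts. TRM10 signals were 6.23, 6.81 and 5.48 in untreated H2B WT, 5.53, 4.60 and 4.82 in treated H2B WT, 6.03, 7.61 and 7.14 in untreated H2B R95A and 5.28, 4.82 and 4.95 in treated H2B R95A. In H2B WT the groups overlapped by a narrow margin, and in H2B R95A they did not. TRM10 gave -1.19 (SE 0.43) and -1.91 (SE 0.43, adjusted p = 0.0941) in the 2 strains. TRM5 signals were between 5.49 and 6.45 in untreated H2B WT and between 5.70 and 7.08 in untreated H2B R95A, and the 6 treated arrays lay between 5.07 and 5.58. TRM5 gave -0.72 (SE 0.34) and -0.98 (SE 0.34).

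TRM1 (YDR120C) encodes a guanosine dimethyltransferase, and TRM2 (YKR056W) the enzyme that methylates a uridine of the T loop. TRM1 signals were 6.67, 7.03 and 5.94 in untreated H2B WT, 6.21, 4.67 and 5.06 in treated H2B WT, 6.71, 8.02 and 7.33 in untreated H2B R95A and 6.40, 4.42 and 5.56 in treated H2B R95A. The treated replicate 1 arrays were high in each strain, which left overlap in H2B WT and a narrow gap in H2B R95A. TRM1 gave -1.23 (SE 0.55) and -1.90 (SE 0.55, adjusted p = 0.135). TRM2 signals ranged over 6.97 to 7.25 and 7.30 to 8.03 in the untreated strains, without overlap, the single member besides TRM11 of which this held. TRM2 gave -0.85 (SE 0.37) and -1.08 (SE 0.37).

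TRM3 (YDL112W) and TRM7 (YBR061C) encode ribose methyltransferases, Trm3 of a guanosine in the D loop and Trm7 of the anticodon loop. TRM3 signals lay between 5.35 and 6.84 and between 6.16 and 7.42 in the untreated strains, and treated arrays between 5.12 and 6.13. TRM3 gave -0.70 (SE 0.43) and -1.15 (SE 0.43). TRM7 was between 6.31 and 7.14 and between 6.28 and 7.78 untreated, and 5.36 to 6.22 treated, with -0.85 (SE 0.39) and -1.26 (SE 0.39, adjusted p = 0.146).

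Across the family, rapamycin in H2B R95A gave lower means for all 9 members, from -0.83 to -2.62, and no overlap between treated and untreated arrays for any of them. Of all tested probe sets, 9.37% had such lower arrays without overlap. The median of the 9 was -1.26, against 0.10 for all tested probe sets. At an adjusted p under 0.05 (limma, Benjamini-Hochberg over 5498 probe sets), 0 of 9 passed, as did 0% of probe sets in that direction, with adjusted p-values of 0.0941 to 0.210. At an unadjusted p under 0.05, 9 of 9 were lower, against 10.2% of probe sets. At the study's threshold, at least 2-fold with an unadjusted p of at most 0.01, here by limma, 5 of 9 passed (TRM1, TRM7, TRM8, TRM10 and TRM82), against 4.73% of probe sets. The study applied this threshold to another test, cyber-T. For H2B R95A the paper listed TRM1, TRM3, TRM7, TRM8, TRM10, TRM11 and TRM82 under tRNA methylation among genes lower with rapamycin. TRM2 was listed there under RNA processing. The adjusted count rests on which arrays were used. With the replicate 1 arrays left out, 7 members passed the adjusted test, against 7.22% of probe sets in that direction, and 7 met the study's threshold, against 7.48%. With H2B R95A untreated replicate 1 alone left out 7 passed, against 7.88% of probe sets, with H2B WT untreated replicate 3 left out 2 (TRM10 and TRM82) passed, against 2.11%, and with array quality weights 9 passed, against 10.6%.

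In H2B WT rapamycin also gave lower means for all 9 members, from -0.58 to -1.27, and 6 had arrays without overlap, against 3.73% of probe sets. The median of the 9 was -0.85, against 0.04 for all tested probe sets. None passed the adjusted test (adjusted p of 1.00 for each, with 0% of probe sets passing). At an unadjusted p under 0.05, 6 were lower, against 3.44%, and at the study's threshold, by limma, 1 was (TRM8), against 0.382%. The paper, with cyber-T, listed TRM1, TRM8, TRM10 and TRM82 under tRNA methylation among genes lower with rapamycin in H2B WT. Without the replicate 1 arrays 0 passed the adjusted test, against 0% of probe sets, and 2 (TRM7 and TRM8) met the study's threshold, against 0.746%. The responses of the 2 strains were tested against each other, and 0 of 9 passed, at an adjusted p of 1.00 each. At an unadjusted p under 0.05 there were 0 members, against 0.0909% of probe sets lower. The median difference of these 9 was -0.41, and 0.05 over all tested probe sets.

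**Figure D2:**
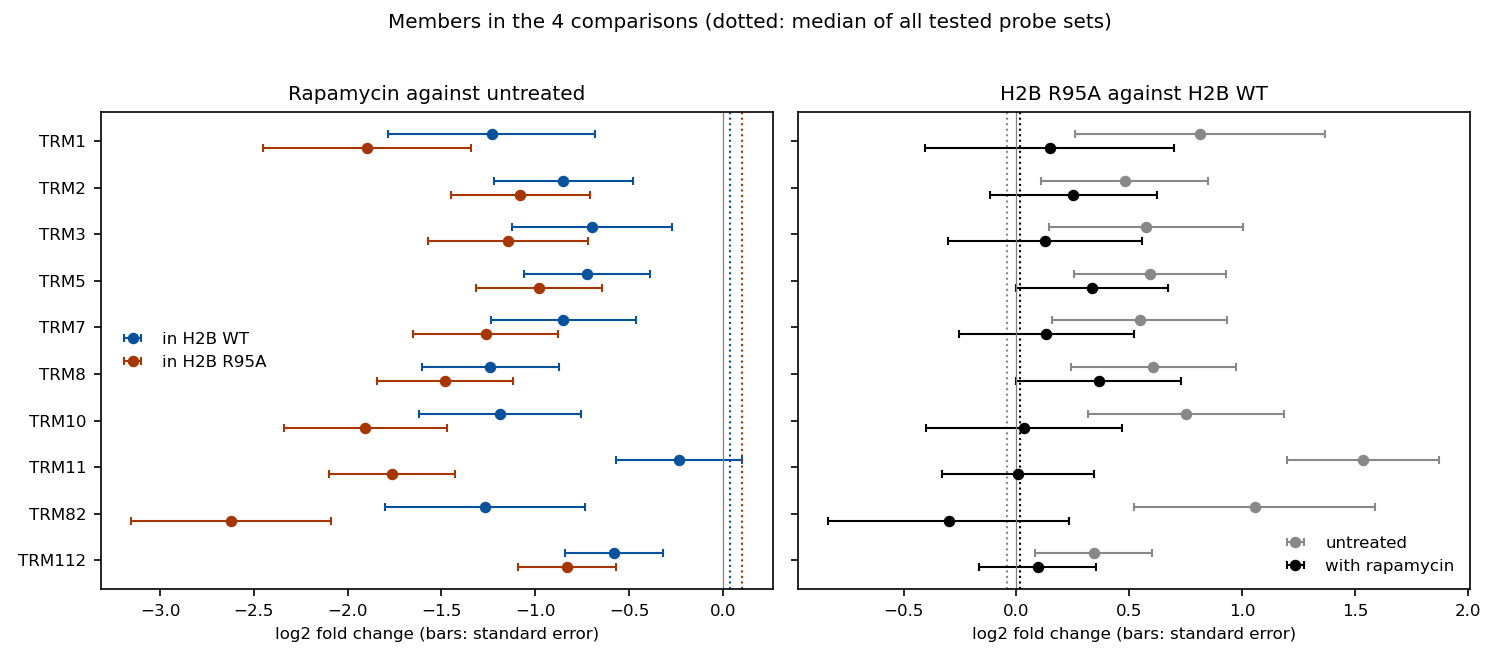
Log2 fold changes (x axis) with standard errors (bars) of the 10 members, for rapamycin against untreated in each strain (left) and H2B R95A against H2B WT untreated or with rapamycin (right). Dotted lines show the median of all tested probe sets. TRM11 is at -0.23 in H2B WT and -1.76 in H2B R95A, and TRM82 reaches -2.62 in H2B R95A.

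Between the untreated strains, the 9 members had higher means in H2B R95A, from 0.34 for TRM112 to 1.05 for TRM82, and 45.2% of tested probe sets were positive. None passed (adjusted p of 0.733 to 0.745), where 0.0364% of probe sets passed as higher. At an unadjusted p under 0.05 there were 0 of 9 members and 1.76% of probe sets, at the study's threshold 0 and 0.164%, and 1 member (TRM2) did not overlap, against 2.69%. The median of the 9 members was 0.59, and that of all tested probe sets -0.04. With rapamycin the 9 members lay from -0.30 (TRM82) to 0.36 (TRM8), and 0 passed (adjusted p of 1.00), where 0.0364% of probe sets passed as higher and 0.309% as lower. At an unadjusted p under 0.05 there were 0 members, against 0.2% of probe sets higher and 1.31% lower, and 1 member (TRM5) did not overlap, against 1.64%. Without the replicate 1 arrays 0 members passed the adjusted test and 0 met the study's threshold in either comparison of the strains or in the difference between the responses. Of 5498 probe sets, 41 passed in either direction between the untreated strains, 24 between the treated strains and 0 in the difference between the responses. The study's threshold was met by 236, 56 and 27 of them. The 4 comparisons share groups with each other, so their values are given side by side and not correlated.

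The size of these differences varied between replicates. Between same-numbered arrays of the untreated strains, the median of the 9 members differed by -0.09, 0.80 and 1.15 in replicates 1, 2 and 3. Rapamycin minus untreated gave medians of -0.46, -1.77 and -0.56 in H2B WT and -0.31, -2.33 and -1.38 in H2B R95A. In both strains the difference was smallest between the replicate 1 arrays, which were also those with high glucose-repressed genes, and the part of those genes' state in the result was not tested.

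**Figure D3:**
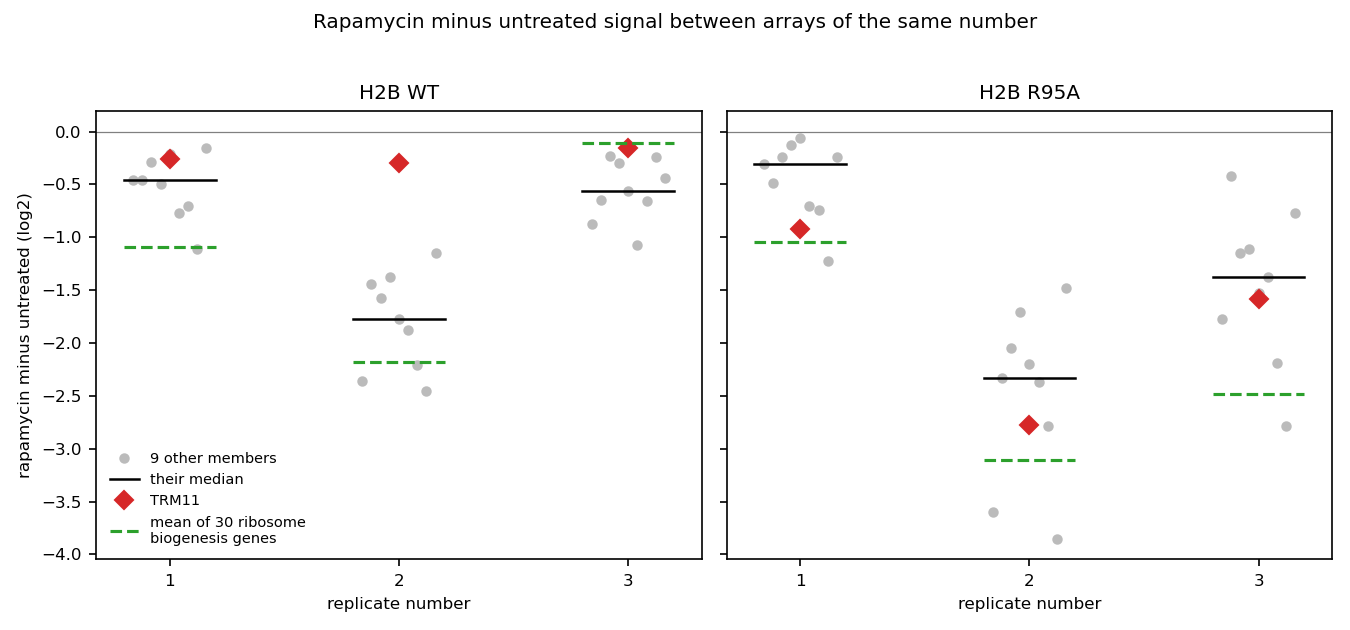
Rapamycin minus untreated log2 signal (y axis) between arrays of the same replicate number (x axis), in H2B WT (left) and H2B R95A (right). Grey points are the 9 members other than TRM11, black lines their median (-0.46, -1.77 and -0.56 in H2B WT, -0.31, -2.33 and -1.38 in H2B R95A), red diamonds TRM11, and green dashed lines the mean of 30 ribosome biogenesis genes.

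The signals of 30 ribosome biogenesis genes also varied between replicates, though not in the same way. Their means were 7.15, 7.47 and 5.39 in untreated H2B WT, 6.06, 5.29 and 5.28 with rapamycin, 7.04, 8.39 and 7.80 in untreated H2B R95A, and 5.99, 5.28 and 5.31 with rapamycin. The untreated H2B WT replicate 3 array was within the range of the treated arrays, so in H2B WT the smallest difference of this mean with rapamycin was in replicate 3 (-0.11), not in replicate 1 (-1.09). Over the 12 arrays, which share normalization and come from 4 groups, Pearson's r with this mean was 0.82 (TRM2) to 0.97 (TRM10), and 0.85 for TRM11. In untreated H2B WT replicate 2 the index was 7.47 and TRM11 was 3.34, while in untreated H2B R95A replicate 1 the index was 7.04 and TRM11 was 4.44. The 9 other members had median signals of 6.93 and 6.28 in those 2 arrays, so their order was the reverse of that of TRM11. These 2 arrays were named with their values known, and TRM11 was chosen by its values in these groups.

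**Figure D4:**
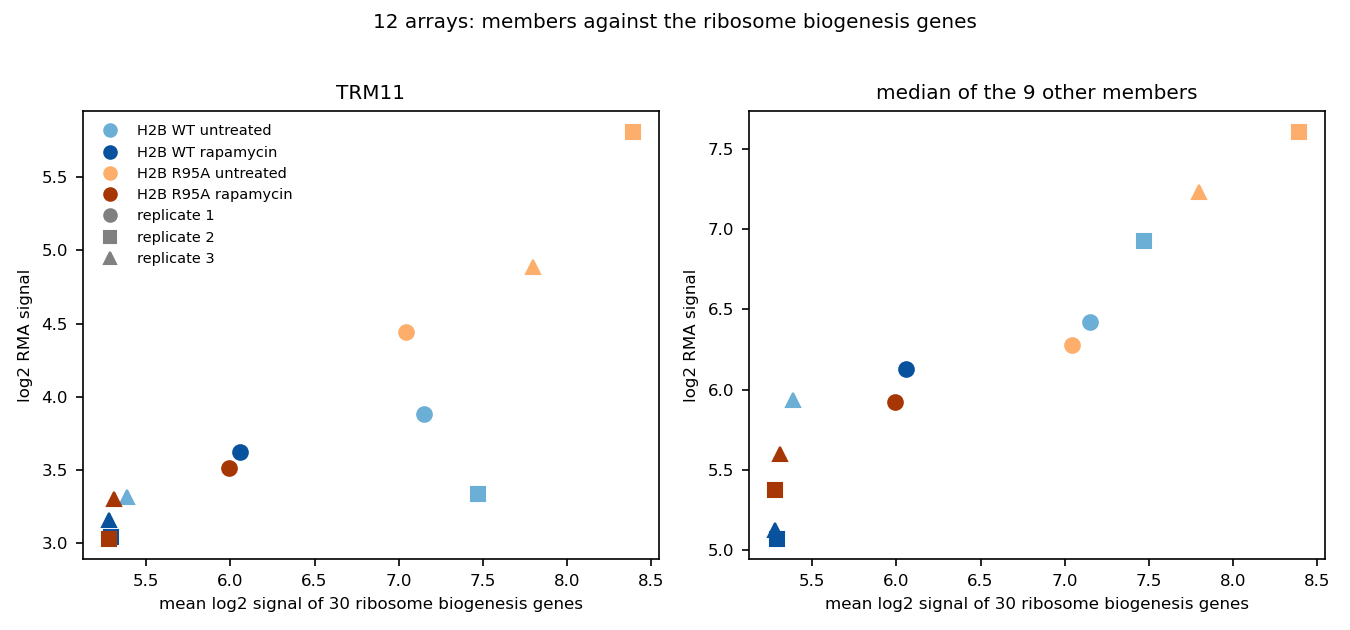
TRM11 (left) and the median of the 9 other members (right), log2 signal on the y axes, against the mean log2 signal of 30 ribosome biogenesis genes in each of 12 arrays (x axes). Colours show the group and symbols the replicate. The untreated H2B WT replicate 2 array is at 7.47 on the x axis with TRM11 at 3.34.

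The genes with patterns most like that of each member over the 12 arrays were named by Pearson's r, as a description. For TRM11 they were WTM2 (0.94), LHS1 (0.92), HOM3 (0.92), HIS1 (0.92) and UTP23 (0.92). For TRM82 the nearest was RPA43 (0.99), a subunit of RNA polymerase I, and for TRM10 RPC40 (0.99), a subunit shared by RNA polymerases I and III. TRM1 was nearest to RPC53 (0.99), a subunit of RNA polymerase III, TRM8 to RRP17 (0.99), TRM7 to TPA1 (0.99), TRM112 to TIF34 (0.99), TRM3 to KRR1 (0.98), TRM2 to BAS1 (0.98) and TRM5 to RRP1 (0.97). The r of TRM11 with the median of the other members was 0.84, the lowest of the 10, and that of TRM10, 0.99, the highest. The values by which TRM11 was chosen enter its r, so its place in this order is a description only.

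Further genes of tRNA maturation were counted beside the family. Of 12 other tRNA methyltransferase and partner genes, 12 were negative with rapamycin in each strain, with medians of -0.33 in H2B WT and -0.56 in H2B R95A. In each strain 0 passed the test, as did 0% of probe sets. At an unadjusted p under 0.05, 2 and 5 were lower, against 3.44% and 10.2% of probe sets. At the study's threshold 0 and 2 were, against 0.382% and 4.73%. Among the 12, those with the largest changes were GCD10, a subunit of the enzyme that methylates adenosine in initiator tRNA (-0.98 and -1.87), NCL1, a cytosine methyltransferase (-0.90 and -1.39), and TRM9 (-0.82 and -1.12). For H2B R95A the paper's tRNA methylation list also holds GCD10, NCL1 and TRM9. Of 42 other tRNA modification genes 31 were negative in H2B WT and 35 were in H2B R95A, with medians of -0.31 and -0.47, and of 19 tRNA splicing and end processing genes 12 and 17 were, with medians of -0.31 and -0.39. Over all tested probe sets 43.7% and 40.2% were negative. The nearest genes on either side of TRM11 on its chromosome, TRM13 and HRP1, gave 0.39 and 0.48 between the untreated strains. With rapamycin TRM13 gave -0.77 in H2B WT and -0.68 in H2B R95A, and HRP1 gave -0.56 and -0.58, with differences between the responses of 0.09 and -0.02. Further out, RPL25 and RPS19A gave 0.64 and 0.55 between the untreated strains, and differences between the responses of -0.95 and -0.67. MDH2 and SMF1 gave -0.18 and 0.07 between the untreated strains, and differences between the responses of 0.37 and -0.06.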

How the data were processed

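Per the labels and the study's methods, the authors normalized the scans by RMA in FlexArray 1.6.3, and the deposited values are log2 signals. Of 10928 probe sets, the 5498 annotated with 1 S. cerevisiae gene (5449 genes) were tested, and 1747 annotated otherwise (1746 of them S. pombe), 213 controls and 3470 with no listed gene were left out. R 4.3.3 and limma 3.58.1 (lmFit, eBayes with a trend, 4 group means, 12 arrays) were used, with Benjamini-Hochberg adjustment over the tested probe sets. Arrays give no read depth, and their number limits the precision, since an exact permutation test of 3 arrays against 3 reaches no p below 0.1. The fits were tested on simulated data. The members and lists were chosen with earlier results of these data known. The rule for naming genes took all 10 members, up to 3 genes of each further list with the largest absolute change, and the 5 nearest by Pearson's r. Some of these genes are not printed, a selection made with their values known. Gene names came from the platform annotation and the RefSeq R64 gene table, without coordinates. Same-numbered arrays deviated together with rapamycin in H2B WT (correlations of 0.84, 0.41 and 0.77) and between the treated strains (0.88, 0.78 and 0.74), but not in every pair of the other comparisons (lowest 0.06 and 0.01), and the main fit holds no block.

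Alternatives were eBayes without a trend, array quality weights, cyber-T (window 101, confidence 10), median and spike-in centring, quantile normalization, a filter on dim probe sets, stricter thresholds, leaving out each array, fits restricted to the compared arrays and a replicate block. Another 2 were added after the data were seen: leaving out all replicate 1 arrays, and a second form of cyber-T. The first form averaged variances over neighbouring probe sets. The second averages SDs, as the published program is recalled to do, which could not be checked here, and it was written after the counts of the first had been seen to be lower than those of an earlier account of these data. On simulated data the second form made more false calls than the first and more than its threshold allows. The simulated noise was independent between arrays and smaller than that of these arrays, so it cannot show whether the counts here are too high. At the study's threshold the second form called TRM1, TRM8, TRM10 and TRM82 in H2B WT, the members that the paper listed under tRNA methylation. That form was chosen after counts were seen, so this match does not check it. Both forms are reported.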

Additional observations from a re-analysis of the deposited data

How the results depend on the processing

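The direction of the median over the members (all 10, or the 9 without TRM11 for the difference between the responses) was kept under all alternatives, apart from the comparison of the treated strains, and the median moved by less than the spread between replicates. The number past the test with rapamycin in H2B R95A, 0 of 9, became 9 with array quality weights, against 10.6% of all probe sets in that direction. It became 3 with cyber-T (TRM1, TRM10 and TRM82), against 2.6%, and 5 with the second form of cyber-T, against 4.4%. That form was chosen after the data were seen and made too many false calls on simulated data. Without the replicate 1 arrays, a setting also chosen after the data were seen, the number was 7, against 7.22%. The number ranged from 0 to 7 when single arrays were left out. It was 7 without H2B R95A untreated replicate 1, against 7.88%, and 2 without H2B WT untreated replicate 3, against 2.11%. At the study's threshold the count there, 5, became 9 with weights, against 8.51% of probe sets, and 7 without the replicate 1 arrays, against 7.48%. It became 7 with the second form of cyber-T, against 6.75%, and 6 with quantile normalization, against 4.71%. Fits restricted to the compared arrays gave 4, against 4.46%, and spike-in centring 3, against 3.15%. At 4-fold it was 1, where the share was not computed. Without single arrays it ranged from 3 to 8, against shares of 1.73% to 7.82%. The count in H2B WT, 1, became 5 with weights, against 3.11%, 0 with cyber-T, against 0.928%, and 4 with its second form, against 1.53%. It became 0 with spike-in centring, against 0.0364%, 0 at 4-fold, and 2 without the replicate 1 arrays, against 0.746%. Without single arrays it ranged from 0 to 3, against shares of 0.0182% to 2.24%. Between the untreated strains the count ranged from 0 to 1. Where it was 1, 261 of 5498 probe sets met the threshold in either direction. The cause of these shifts was not tested.

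Spike-in centring turned the small differences between the treated strains for TRM1 (-0.22), TRM2 (-0.12), TRM3 (-0.24), TRM5 (-0.033), TRM7 (-0.23), TRM8 (-0.0032), TRM10 (-0.33) and TRM112 (-0.27), and moved the median of all probe sets there to -0.35. Leaving out single arrays gave ranges through 0 in the same comparison for TRM1 (-0.32 to 0.67), TRM2 (-0.0062 to 0.68), TRM3 (-0.066 to 0.44), TRM7 (-0.063 to 0.33), TRM10 (-0.16 to 0.31) and TRM112 (-0.062 to 0.30), and in the difference between the responses for TRM2 (-0.49 to 0.20), TRM5 (-0.64 to 0.054) and TRM8 (-0.50 to 0.10). Between the treated strains TRM11, at 0.01, was also turned by spike-in centring (-0.36) and ranged from -0.11 to 0.18 without single arrays. TRM11 ranged from 1.15 to 1.84 between the untreated strains and from -1.83 to -1.15 in the difference between the responses when single arrays were left out. It was chosen by its values in these same arrays, so these ranges are a description and do not check its difference.

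With the replicate number as a block, 0 members passed the test in each comparison, as without it. Of 5498 probe sets, 32 passed between the untreated strains, 36 between the treated strains and 0 in the other comparisons. The smallest adjusted p of a member (limma) was 0.0537 in H2B R95A and 0.444 in H2B WT with rapamycin. There 4 and 1 members met the study's threshold, against 6.58% and 0.637% of probe sets. Every member had 1 probe set, so the mean over several could not be run. The dim filter kept 5483 of 5498 probe sets and all members.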
